A study of Mus musculus with 6 samples.

Results

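Grb10 and 6 genes of insulin and insulin-like growth factor (IGF) receptor signalling (Igf2r, Igf1r, Insr, Irs1, Irs2 and Igfbp2) were followed in mouse embryonic stem cells with and without Pml, the gene of the scaffold protein of PML nuclear bodies. These 7 of the 24421 genes in the deposited table were taken by gene symbol, and the set was chosen by the values of this same comparison: it was built around Grb10, whose CPM was among those that increased most in Pml-/- against wild-type libraries. RNA was sequenced from E14 cells, a mouse embryonic stem cell line, of 2 genotypes: Pml-/- (n = 2 libraries) and wild type (n = 2 libraries). Cells of all 4 libraries had received paraquat, a herbicide that produces superoxide in cells by redox cycling, at 10 µM for 15 h. Their serum medium held PD0325901, which inhibits MEK, CHIR99021, which inhibits GSK3, and leukemia inhibitory factor. The comparison is between genotypes under treatment; untreated cells were not analysed here. The sources used here give neither the disrupted part of Pml nor whether the knockout line is 1 clone, nor whether the libraries of a genotype came from separate cultures. The spread between these libraries may therefore be technical. Standard errors (SE) and p-values by limma rest on this spread, drawn for each gene toward that of genes at a like level. The SE of a gene can thus be smaller or larger than its own 4 libraries would give. The other 2 of the 6 samples, chromatin labelled around PML, were not analysed here.

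Insulin and the IGFs bind the receptor tyrosine kinases encoded by Insr and Igf1r, which phosphorylate the docking proteins IRS1 and IRS2 and so recruit PI3K, with AKT, mTOR and the FOXO factors downstream. GRB10 is an adaptor that binds the activated receptors through its SH2 and neighbouring domains and restrains their signal, and mTORC1 phosphorylates it. IGF2R, the cation-independent mannose 6-phosphate receptor, has no kinase and carries IGF2 to lysosomes, and IGFBP2 binds IGFs outside the cell. Grb10 and Igf2r are imprinted genes of the mouse, expressed mainly from the maternal allele in most tissues outside the brain. The values here do not separate alleles, so the allele expressed in these stem cells is not known from them.

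The promoters of Grb10 and Igf2r, the member with the largest difference upward and the one with the largest downward, are shown because the table gives 1 value per gene, whichever start its reads came from, and the RefSeq (GRCm38.p6) promoters used here hold 2 Grb10 starts. These may not be all: the annotated gene begins at chr11:12037428, a few bases before the first of them. Windows run from 250 bases before to 50 bases after a start, 5′ to 3′ on the gene's strand, with every CG dinucleotide in capitals. The first Grb10 window (chr11:12037371-12037670, minus strand) is followed by the second (chr11:12027922-12028221, minus strand), which lies 9.45 kb into the gene, and by that of Igf2r (chr17:12769657-12769956, minus strand).
Grb10 first start: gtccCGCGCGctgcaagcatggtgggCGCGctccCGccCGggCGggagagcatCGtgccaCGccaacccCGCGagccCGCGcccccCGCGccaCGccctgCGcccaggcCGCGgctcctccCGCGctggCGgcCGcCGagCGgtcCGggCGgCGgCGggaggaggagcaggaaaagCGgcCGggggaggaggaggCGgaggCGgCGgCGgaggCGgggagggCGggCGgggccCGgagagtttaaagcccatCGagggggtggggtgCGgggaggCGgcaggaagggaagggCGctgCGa
Grb10 second start: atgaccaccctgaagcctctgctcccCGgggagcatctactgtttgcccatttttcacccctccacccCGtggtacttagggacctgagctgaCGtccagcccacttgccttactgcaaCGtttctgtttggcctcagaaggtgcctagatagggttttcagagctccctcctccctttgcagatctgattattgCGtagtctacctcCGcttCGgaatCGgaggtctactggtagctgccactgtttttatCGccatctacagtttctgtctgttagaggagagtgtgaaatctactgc
Igf2r: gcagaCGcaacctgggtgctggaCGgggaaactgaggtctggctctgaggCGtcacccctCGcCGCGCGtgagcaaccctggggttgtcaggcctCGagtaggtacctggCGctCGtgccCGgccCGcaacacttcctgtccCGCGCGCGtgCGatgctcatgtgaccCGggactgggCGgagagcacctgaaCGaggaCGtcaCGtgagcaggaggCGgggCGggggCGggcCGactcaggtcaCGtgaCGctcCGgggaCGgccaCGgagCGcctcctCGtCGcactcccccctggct

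The pair of Grb10 windows differ in base composition: the first holds 45 CG dinucleotides at 80.0% G+C, more CG than 98.1% of the 32851 promoter windows in the table, and the second holds 9 at 52.3% G+C, against a median of 7 over all windows. The Igf2r window holds 34. Promoters were found for 6 of the 7 genes, in 8 windows. The letters CACGTG, a palindrome read the same on both strands and chosen after the sequences had been seen, occurred in 4 of these 8 windows (Igf2r, Irs1, Irs2 and the first Igfbp2 window) and in 7.15% of all windows. Igf2r held 2 copies, and 2 or more were found in 0.594% of all windows. CACGTG itself holds a CG, and the 8 windows hold 9 to 48 CG, against the median of 7. The shares over all windows were not matched for CG content, so no enrichment is read from them. Neither Grb10 window nor that of Igf1r held CACGTG, and 0 of the 8 windows held TGTTTAC or its reverse complement GTAAACA, a sequence bound by FOXO factors, which was found in 3.65% of all windows. These are matches of letters in short windows, not measured binding.

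Values are CPM, reads per 1000000 reads counted in genes, from libraries of 38150397 and 43715807 reads (Pml-/-) and 31384794 and 44130093 reads (wild type). Pml itself was at 78.7 and 89.7 CPM in Pml-/- cells, against 238 and 228 CPM in wild-type cells, so 36.2% of the level remained. Markers of embryonic stem cells, among them Pou5f1, Sox2 and Nanog, summed to 5955 to 6039 CPM in Pml-/- libraries and 5808 to 5917 CPM in wild-type libraries. The labelled cell type thus had most of these markers. Dppa3 was low, at 2.44 and 2.20 CPM in Pml-/- libraries, against 2.07 and 2.63 CPM in wild-type libraries. Within this list of 8 Zfp42 fell (log2 difference -0.27, limma adjusted p = 0.00251) and Tfcp2l1 rose (0.29, adjusted p = 0.0241). Summed markers of other types ranged from 7.97 to 10.4 CPM in Pml-/- and 7.34 to 8.89 CPM in wild-type libraries for 6 endoderm genes, 9.88 to 10.4 and 11.4 to 12.0 CPM for 5 mesoderm genes, and 13.7 to 15.7 and 13.7 to 13.9 CPM for 6 fibroblast genes. They ranged from 246 to 249.9 CPM in Pml-/- and 272 to 281 CPM in wild-type libraries for 5 neural genes. Most of this sum was Tubb3, at 193 and 195 CPM in Pml-/- and 200 and 207 CPM in wild-type libraries. Tubb3 was not called, while Nes and Sox1 fell. For 5 trophoblast genes the sums were 72.4 to 73.4 CPM in Pml-/- and 50.7 to 56.8 CPM in wild-type libraries. Most of it was Tfap2c, which rose and which germ cells also express. The knockout libraries also had little RNA of Ddx3y, a helicase gene of the Y chromosome. It was at 8.91 and 8.53 CPM in Pml-/- cells, against 160.5 and 164 CPM in wild-type cells. Other genes of the Y chromosome are not reported here. Tested genes of chromosome 8, which carries Insr and Irs2, had a median log2 difference of -0.061. The part of these differences in the results below was not tested. In such bulk RNA fewer cells expressing a gene and less RNA per cell cannot be told apart. The kit entry in the labels of wild-type library 2 names a DNA kit alone, where those of the other 3 name an RNA kit, in Pml-/- library 2 beside the DNA kit.

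Grb10 was higher in Pml-/- cells. It was at 324 and 341 CPM in the Pml-/- libraries, against 185 and 175 CPM in the wild-type libraries (12378 and 14917 reads against 5797 and 7720). Both knockout libraries lay far above both wild-type libraries, and libraries of 1 genotype differed by little. The means were 333 ± 11.9 CPM in Pml-/- and 179.8 ± 6.91 CPM in wild-type cells (SD, n = 2 each), a 1.85-fold difference, and single knockout libraries stood 1.76 to 1.95 times above single wild-type libraries. On the log2(CPM + 1) scale, used for all log2 differences here (Pml-/- minus wild type), it was 0.88 with a standard error of 0.047 from the limma fit. Because this comparison chose Grb10, no test is given for it or for the other 6 genes.

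By signed log2 difference, largest increase first, Grb10 ranked 5 from the top of the 12710 genes tested, those that averaged 1 CPM or more. Counting both directions, 0.401% of tested genes had a larger log2 difference than Grb10. The next genes above it were Plac8 (0.89) and Zscan4c (0.98), and the next below Usp17lb (0.88) and Usp17le (0.87). These 4 had few reads, and the 1 CPM added before the log2 shrinks differences at such low levels. In the means Usp17lb was 2.25-fold and Usp17le 2.19-fold higher in Pml-/- cells, against 1.85-fold for Grb10. Plac8 stood at 2.46 and 2.33 CPM in Pml-/- and 0.83 and 0.84 CPM in wild-type cells, and Zscan4c, a gene of the 2-cell-like state, at 4.98 and 4.62 CPM in Pml-/- and 2.17 and 1.74 CPM in wild-type cells. Among the 2592 genes that averaged 100 CPM or more, a limit chosen after the values were seen, Grb10 ranked 1 from the top.

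**Figure D1:**
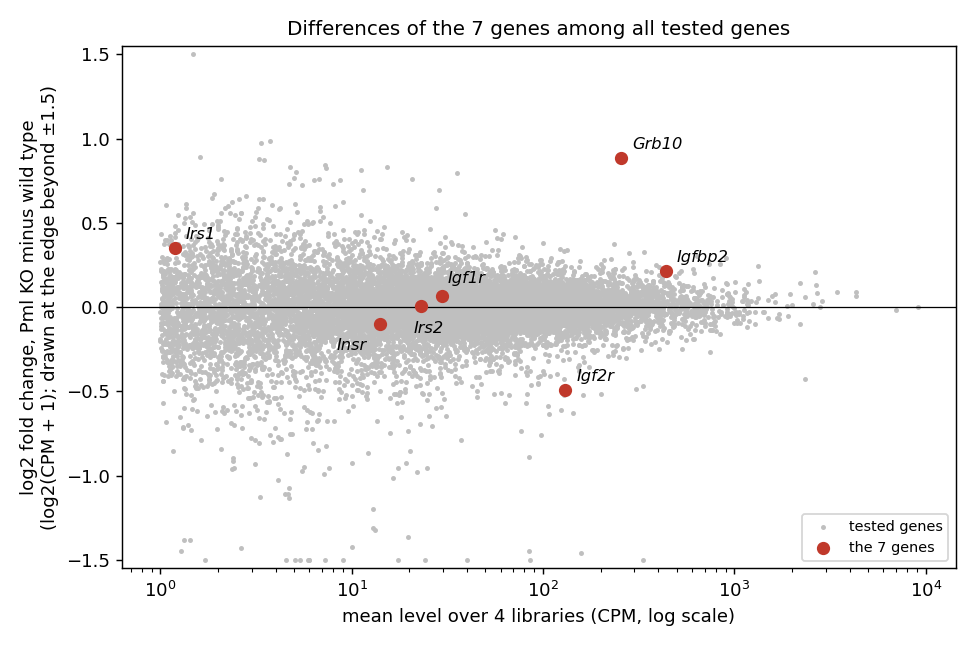
Mean level over the 4 libraries (CPM, log axis) against log2 difference (Pml-/- minus wild type, log2(CPM + 1)) for 12710 tested genes in grey, values beyond ±1.5 drawn at the edge, with the 7 genes in red. Grb10 stands at 0.88 and Igf2r at -0.49, while Igf1r, Insr and Irs2 lie between -0.10 and 0.07.

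Igf2r was lower in Pml-/- cells. It was at 115 and 102 CPM in the Pml-/- libraries, against 138 and 168 CPM in the wild-type libraries. The genotypes did not overlap, but the wild-type libraries differed from each other by 1.21 times. The means were 108 ± 8.98 CPM in Pml-/- and 153 ± 20.5 CPM in wild-type cells (SD, n = 2 each), so 70.8% of the level remained. The log2 difference was -0.49 (SE 0.076), and -0.35 without wild-type library 2, the one whose kit label differs. The log2 values of Igf2r had an SD of 0.12 in Pml-/- and 0.19 in wild-type libraries (n = 2 each). This limma SE is thus smaller than the gene's own spread would give. Airn, the noncoding RNA that runs antisense through Igf2r and silences the paternal copy in many tissues, had 2 and 2 reads in Pml-/- libraries and 0 and 3 reads in wild-type libraries. The sources used here do not say whether strand was used in counting, so reads of this overlapping pair may not be told apart.

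The receptor tyrosine kinase genes differed little. Igf1r was at 31.7 and 29.1 CPM in Pml-/- libraries, against 28.4 and 29.4 CPM in wild-type libraries, with overlapping groups and a log2 difference of 0.07 (SE 0.078). Insr was at 14.0 and 13.0 CPM in Pml-/- libraries, against 14.4 and 14.7 CPM in wild-type libraries. Its knockout libraries were the lower ones by a narrow gap, with a log2 difference of -0.10 (SE 0.099), or -0.04 relative to the median of chromosome 8.

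Of the docking protein genes, Irs2 had overlapping values and Irs1 had few reads. Irs2 was at 23.3 and 22.8 CPM in Pml-/- libraries, against 22.7 and 23.0 CPM in wild-type libraries, with a log2 difference of 0.0064 (SE 0.082). The groups overlapped, and the 4 values lay within a narrow range. Irs1 was at 1.52 and 1.40 CPM in Pml-/- libraries, against 0.80 and 1.07 CPM in wild-type libraries, from 58 and 61 reads against 25 and 47. Both knockout libraries were above both wild-type libraries, at a log2 difference of 0.35 (SE 0.18), which was 0.63 by edgeR on the recovered reads, a scale that adds less to low values. Irs1 had a mean under 1 CPM in wild-type cells and passed the limit of 1 CPM through its knockout libraries.

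Igfbp2, the binding protein of the set, was slightly higher in Pml-/- cells. It was at 484 and 461 CPM in Pml-/- libraries, against 402 and 411 CPM in wild-type libraries. The groups did not overlap. The means were 472 ± 15.8 CPM in Pml-/- and 406 ± 6.20 CPM in wild-type cells (SD, n = 2 each), a 1.16-fold difference with a log2 value of 0.22 (SE 0.043).

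**Figure D2:**
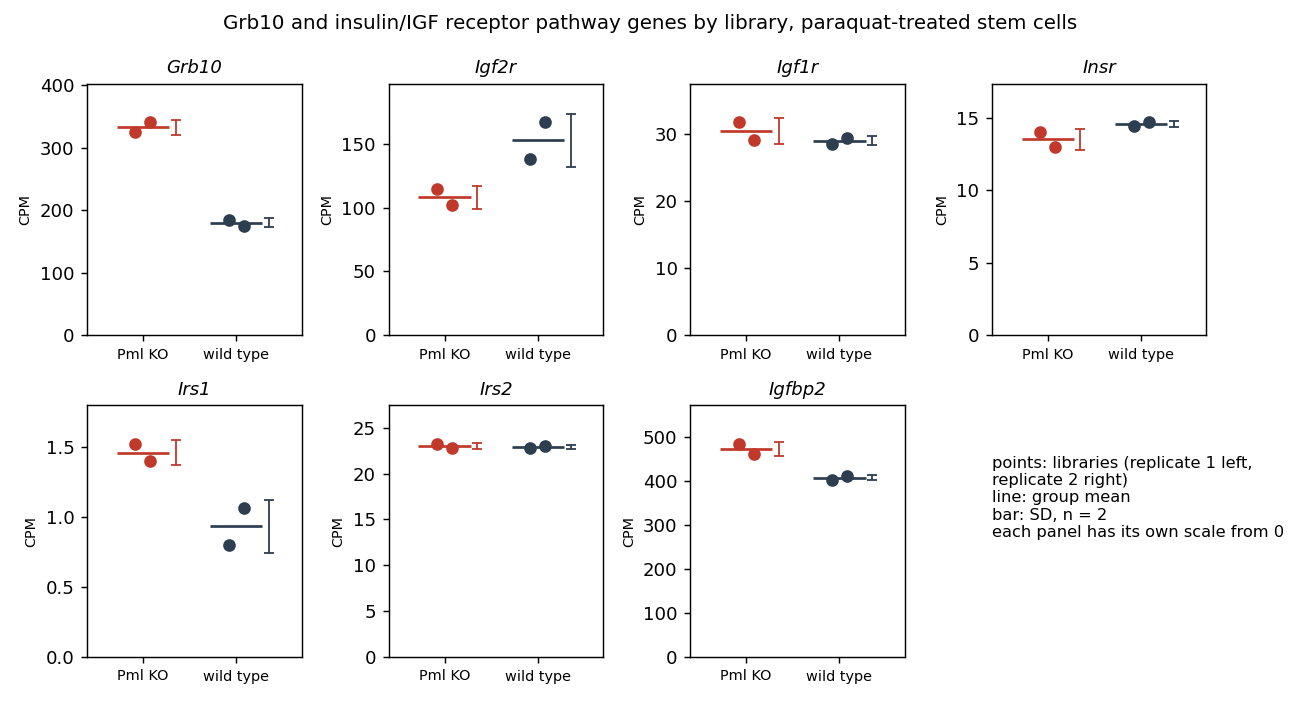
Level (CPM, axis from 0, each panel on its own scale) of the 7 genes in Pml knockout (Pml-/-, red, left) and wild-type (dark, right) libraries, with each library as a point, the group mean as a line and the SD (n = 2) as a bar. Grb10, Igfbp2 and Irs1 are higher in both knockout libraries, Igf2r and Insr lower in both, and Igf1r and Irs2 overlap.

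In all, 3 of the 7 genes lay above wild type in both knockout libraries, 2 lay below it and 2 overlapped. Over all 12710 tested genes the libraries of the genotypes failed to overlap in 49.3%, with 23.8% above and 25.5% below, and nothing is read from the members' count. Ratios of reads between members restate these values, among them that of Grb10, which chose the set, and add no separate result. Grb10 had 2.83 and 3.35 reads per Igf2r read in Pml-/- libraries, against 1.33 and 1.04 in wild-type libraries, and 23.1 and 26.3 reads per Insr read in Pml-/- libraries, against 12.8 and 11.9 in wild-type libraries. Irs2 reads per Irs1 read were 15.3 and 16.3 in Pml-/- libraries, against 28.6 and 21.6 in wild-type libraries. That difference rests mainly on Irs1, which had 25 and 47 reads in wild-type libraries and passed the limit through its knockout libraries. Such ratios compare libraries; they are not numbers of molecules, since reads also depend on transcript length.

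Other genes of the pathway were called about as often as genes at large. Of 116 other genes listed, all of them in the table, 99 averaged 1 CPM or more, and 5 of these fell and none rose (limma, adjusted p under 0.05 over all tested genes). The share called, 5.05%, was near the 5.41% called over all 12710 tested genes, of which 1.95% rose and 3.45% fell, and the list median was -0.011, against -0.0029. At an unadjusted p under 0.05 there were 9 higher and 13 lower, 22.2% of the list against 19.3% of all tested genes. EdgeR on recovered reads called the same 5 genes. The number called was 3 without wild-type library 1 and 8 without wild-type library 2, all of them lower. Without Pml-/- library 2 it was 4 lower and 1 higher.

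**Figure D3:**
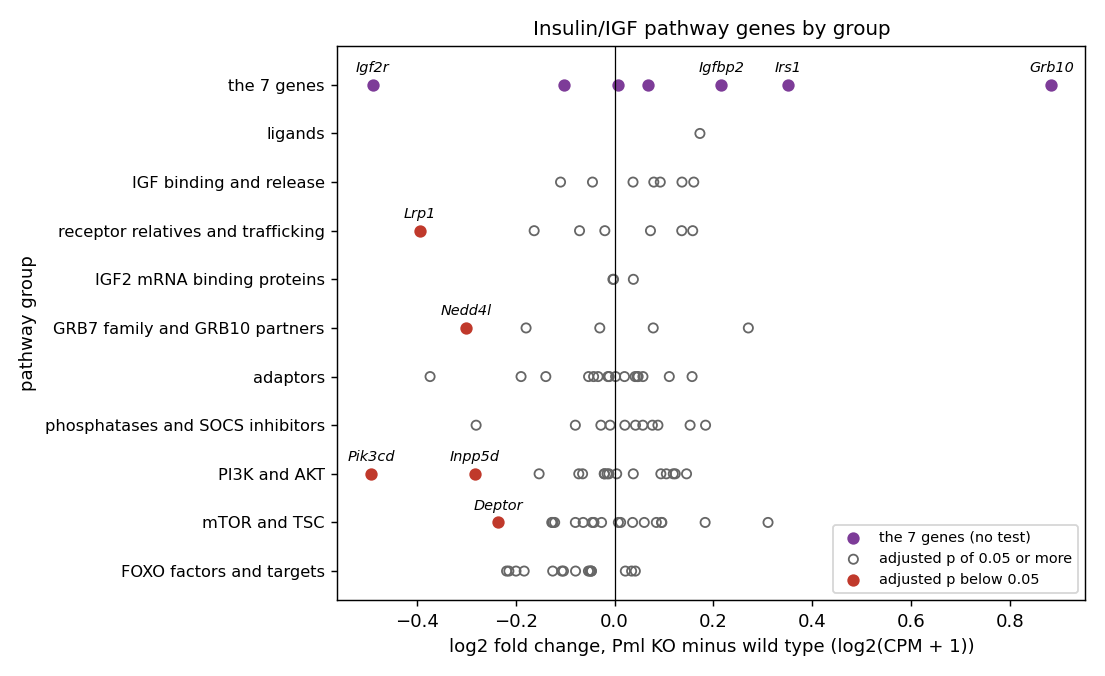
Log2 difference (Pml-/- minus wild type, log2(CPM + 1)) of the 7 genes (top, no test) and of 99 tested pathway genes in 10 groups, with each gene as a point and those at a limma adjusted p under 0.05 filled in red. The 5 red genes, Pik3cd, Lrp1, Nedd4l, Inpp5d and Deptor, all lie left of 0.

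Among ligands and their binding proteins none passed. Ins1 and Ins2, the mouse insulin genes, had no reads in any library. Igf1 had under 1 CPM in all 4, and Igf2 was at 15.0 and 16.1 CPM in Pml-/- libraries, against 14.1 and 13.3 CPM in wild-type libraries (log2 difference 0.17, SE 0.098, limma adjusted p = 0.369). The 7 tested genes for IGF binding and release had log2 differences of -0.11 to 0.16, with 0 called by limma or edgeR and 0 at an unadjusted p under 0.05. The 3 Igf2bp genes, whose proteins bind Igf2 mRNA, differed by no more than 0.04 in log2 with the same counts of 0. Over all tested genes limma called 5.41% and 19.3% had an unadjusted p under 0.05, so 0 of so few is no result.

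Lrp1, a large endocytic receptor, was the only 1 of 7 tested receptor relatives and trafficking genes to pass, 14.3% against 5.41% of all tested genes. At a limma unadjusted p under 0.05 there were 4 of the 7, 2 higher and 2 lower. That is 57.1% against 19.3% of all tested genes, and the group as a whole was not tested. Lrp1 was the one called lower. It was at 101 and 103 CPM in Pml-/- libraries, against 121 and 149 CPM in wild-type libraries. As with Igf2r, wild-type library 2 was above wild-type library 1, here by 1.22 times. The log2 difference was -0.39 (SE 0.072, limma adjusted p = 0.00447), a call that ended with no filter on low genes (adjusted p = 0.0508). The value was -0.25 without wild-type library 2 and -0.54 without wild-type library 1. M6pr, the smaller mannose 6-phosphate receptor, was at 183 ± 16.3 CPM in Pml-/- and 173 ± 0.899 CPM in wild-type cells (SD, n = 2 each; adjusted p = 0.53 by limma).

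The Grb10 relatives Grb7 and Grb14, adaptors of the same family, had their higher values in Pml-/- cells and did not pass or were not tested. Grb7 was at 16.4 and 15.4 CPM in Pml-/- libraries, against 14.2 and 11.9 CPM in wild-type libraries. Its libraries did not overlap, as in 49.3% of all tested genes, and the log2 difference of 0.27 (SE 0.11) did not pass (limma adjusted p = 0.173). Grb14 stood at 0.81 and 1.28 CPM in Pml-/- libraries and 0.76 and 0.75 CPM in wild-type libraries, below the limit for testing. These values rest on 31 and 56 reads against 24 and 33, so nothing is read from their order. Nedd4, the ubiquitin ligase that GRB10 brings to the IGF1 receptor, was at 2004 ± 25.0 CPM in Pml-/- and 1898 ± 1.24 CPM in wild-type cells (SD, n = 2 each; limma adjusted p = 0.329). Its relative Nedd4l fell to 44.0 and 46.1 CPM in Pml-/- libraries, against 55.1 and 56.4 CPM in wild-type libraries (log2 difference -0.30, SE 0.063, limma adjusted p = 0.0102). Gigyf1 and Gigyf2, named for binding GRB10, did not pass, at log2 differences of -0.18 and -0.03.

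In the PI3K and AKT group 2 of 16 fell, 12.5%. Over all tested genes 3.45% fell and 5.41% were called in either direction. At a limma unadjusted p under 0.05 there were 3 of the 16, all lower, 18.8% against 19.3% of all tested genes. The group as a whole was not tested. Inpp5d, which encodes the phosphatase SHIP1 that acts on the lipid product of PI3K, fell to 209 CPM in both Pml-/- libraries, against 258 and 251 CPM in wild-type libraries (log2 difference -0.28, SE 0.044, limma adjusted p = 0.00156). Pik3cd, a catalytic PI3K subunit known mainly from leukocytes, fell to 8.99 and 8.33 CPM in Pml-/- libraries, against 13.4 and 11.9 CPM in wild-type libraries (log2 difference -0.49, SE 0.11, limma adjusted p = 0.0177). The Pik3cd call ended without Pml-/- library 2 (adjusted p = 0.123), without wild-type library 1 (0.105) and with no filter (0.0938). The 3 Akt genes had log2 differences of -0.06 to -0.01.

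Of 18 tested genes of the mTOR and TSC group, Deptor, an inhibitor bound to mTOR, fell to 92.2 and 99.3 CPM in Pml-/- libraries, against 113 and 112 CPM in wild-type libraries (log2 difference -0.24, SE 0.054, limma adjusted p = 0.0178). This call ended without Pml-/- library 1 (adjusted p = 0.0785), without wild-type library 1 (0.0636) and with no filter (0.0568). Mtor itself was at 128 ± 2.88 CPM in Pml-/- and 128 ± 15.5 CPM in wild-type cells (SD, n = 2 each). None of 16 adaptor genes, 11 phosphatase and SOCS inhibitor genes or 15 FOXO factors and targets passed with limma or edgeR. Over all tested genes limma called 5.41%. At a limma unadjusted p under 0.05 there were 4 adaptor genes, 2 phosphatase and SOCS genes and 2 FOXO genes. These are 25.0%, 18.2% and 13.3% of each group, against 19.3% of all tested genes. The mTOR and TSC group had 5 of 18 at this limit, 27.8%, with 2 higher and 3 lower. Of the FOXO group 3 of 15 log2 differences were above 0, as were 6230 of all 12710, and the group median was -0.08, against -0.0029 over all tested genes; the group as a whole was not tested.

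Few genes next to the imprinted members could be tested. Within 500 kb of Grb10 on chromosome 11, by the lowest annotated position of each gene, 4 other genes were tested and limma and edgeR called 0, against 5.41% called by limma over all tested genes, a share at which 0 of so few is no result. At an unadjusted p under 0.05 there were 2, Ddc and Cobl, both with positive values, against 19.3% of all tested genes. Ddc, the aromatic amino acid decarboxylase gene beside Grb10, was at 57.0 and 53.8 CPM in Pml-/- libraries, against 50.2 and 48.8 CPM in wild-type libraries, a log2 difference of 0.16 (SE 0.063, limma adjusted p = 0.175) against 0.88 for Grb10. Cobl, an actin nucleator gene, had a log2 difference of 0.13 (SE 0.043, limma adjusted p = 0.102), Fignl1 0.06 and 1700042O10Rik -0.07. Within 500 kb of Igf2r on chromosome 17, limma and edgeR called 0 of 7 tested genes and 0 had a limma unadjusted p under 0.05. Over all tested genes the limma shares were 5.41% and 19.3%, at which 0 of so few is no result. The 7 log2 differences ran from -0.09 for Mrpl18, a mitochondrial ribosomal protein gene, to 0.06 for Sod2, the mitochondrial superoxide dismutase gene. Igf2r itself was at -0.49.

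**Figure D4:**
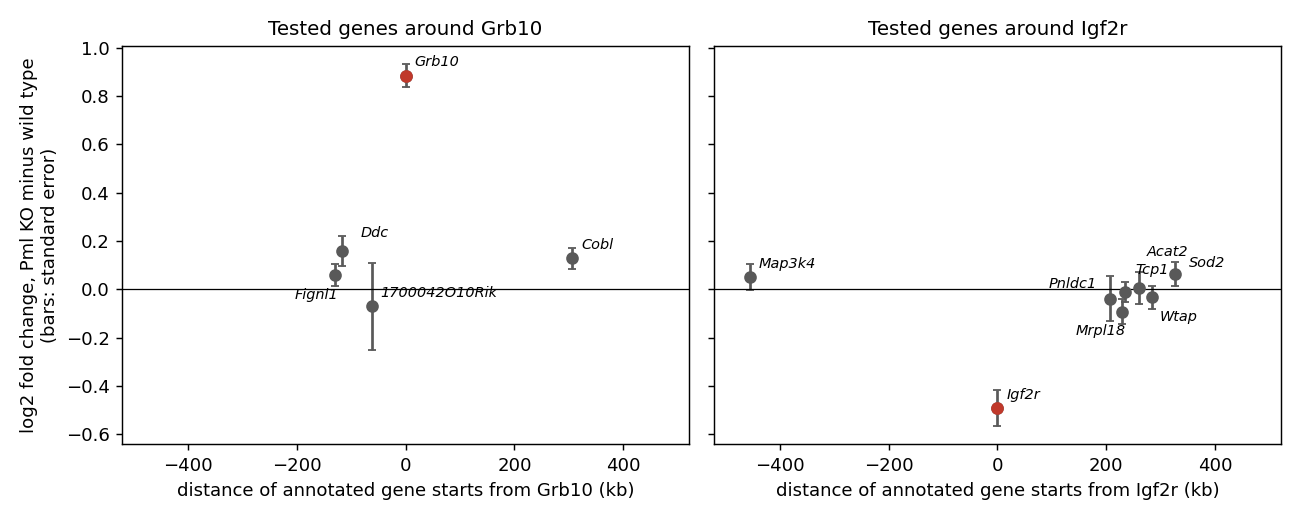
Log2 difference (Pml-/- minus wild type, log2(CPM + 1), bars for the limma standard error) of tested genes against their distance in kb from Grb10 (left) and Igf2r (right), which are drawn in red. The 4 neighbours of Grb10 lie between -0.07 and 0.16 and the 7 of Igf2r between -0.09 and 0.06.

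The genes whose pattern over the 4 libraries was nearest to that of Grb10 were looked for among 7593 others that averaged 20 CPM or more, by the Euclidean distance between log2(CPM + 1) profiles centred on each gene's mean. With only 4 libraries this finds mainly genes with a like difference between genotypes, so it is a description. The nearest was Accsl (distance 0.23), at 45.7 and 44.5 CPM in Pml-/- libraries, against 23.8 and 27.6 CPM in wild-type libraries. Lrrc15, a leucine-rich repeat membrane protein gene (0.25), was at 23.9 and 28.3 CPM in Pml-/- libraries, against 14.0 and 16.0 CPM in wild-type libraries. Gli1, a transcription factor and target of Hedgehog signalling (0.25), was at 36.9 and 34.1 CPM in Pml-/- libraries, against 23.4 and 19.9 CPM in wild-type libraries. D8Ertd82e (0.40) had a log2 difference of 0.59. In these 4 genes both knockout libraries were above both wild-type libraries, as in Grb10, by less than its 1.85-fold in the means.

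**Figure D5:**
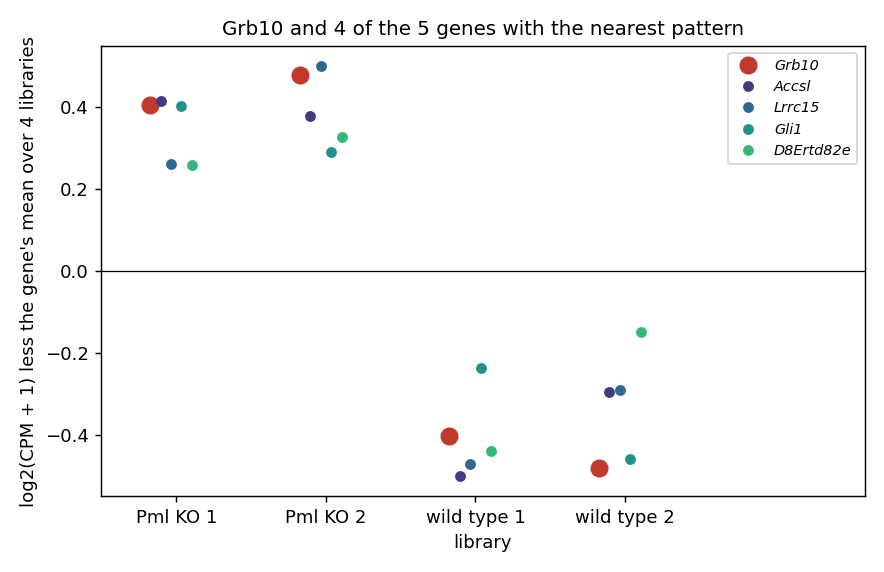
Log2(CPM + 1) of Grb10 and 4 of the 5 genes nearest to it in pattern, less each gene's mean over the 4 libraries, in 2 Pml knockout (left) and 2 wild-type (right) libraries, with each gene as a point shifted sideways for legibility. All of these genes lie above 0 in both knockout libraries and below 0 in both wild-type libraries.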

How the data were processed

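RNA libraries of Pml-/- and wild-type E14 cells in paraquat were compared (n = 2 each). Per the submitters' processing notes, the authors used cutadapt, TopHat and edgeR on mm10; versions, annotation and the handling of strand and of multiply mapping reads were not stated there. The deposited table gives CPM per library, and the authors' log2 fold change and p-value columns, not used here. Low CPM values are whole multiples of 1 read, and whole reads were recovered for 100% of values (tolerance 0.001 reads), so depth is known.

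From the CPM values, limma-trend (limma 3.58.1, R 4.3.3) was run on log2(CPM + 1) over 12710 genes that averaged 1 CPM or more, with a model of genotype alone; p-values were adjusted by Benjamini-Hochberg, with 0.05 as the threshold. EdgeR 4.0.16 (quasi-likelihood, TMM, filterByExpr) on recovered reads was an alternative; it called 620 genes, 596 of them shared with limma. Other alternatives were a pseudocount of 0.5, no filter, TMM scaling, a replicate block, leaving out each library and, for the 7 genes, subtracting the chromosome median.

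The members and the pathway, marker and neighbour lists were chosen with earlier results of these data known. Genes named were all members; Pml; up to 4 called genes per pathway group; 6 set ligand and Grb10 family genes; tested genes within 500 kb of Grb10 or Igf2r; the 2 genes ranked next above and below Grb10; and the 5 nearest in pattern, of which 1 is not reported here. Others (M6pr, Nedd4, Gigyf1, Gigyf2, Mtor, Akt genes, Ddx3y, Airn, Tfap2c) were named after their values were seen, for their role. Symbols were matched to RefSeq genes and promoters of GRCm38.p6, 23204 directly, 1096 by an older symbol and 121 not. Depth and the number of libraries set the precision: Irs1 rests on 25 to 61 reads per library, Grb10 on 5797 to 14917.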

Additional observations from a re-analysis of the deposited data

How the results depend on the processing

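The log2 difference of Grb10 (0.88) stayed between 0.85 and 0.92 under all 10 alternatives, with 0.85 to 0.92 when each library was left out. Leaving out the filter or adding the replicate block returns the same difference of means by construction. These settings could therefore not move the log2 difference of any gene. TMM factors of 0.993 to 1.009 left little room for a change. All 10 alternatives reuse the comparison that chose Grb10, so they are no independent check of its difference. Igf2r ran from -0.63 to -0.35 and Igfbp2 from 0.18 to 0.25, each extreme with 1 library left out. Igf1r, Insr and Irs1 kept their sign under all 10, and Irs2 ran from -0.0083 to 0.067. The number of genes called over the table (687) was 298 with no filter on low values, 620 with TMM scaling or edgeR, and 367 to 869 with a library left out. The 5 pathway calls became 2 with no filter and 3 to 8 with a library left out. Of these 5, Inpp5d and Nedd4l stayed called under all 9 alternative fits. Replicate numbers are shared between the genotypes, but the labels do not say that they pair the samples; deviations of same-numbered libraries correlated at 0.12 over tested genes, and a block for the replicate number gave 1198 genes and 10 pathway genes, 2 of them higher. Why these counts moved was not tested. Low depth limits Irs1 and Grb14, and 2 libraries per genotype limit the rest.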
